A study of Mus musculus with 36 samples.

Results

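The genes that send, receive and damp Wnt signals were followed across 36 RNA-seq libraries of mouse prostate organoids carrying FOXA1 constructs. The set holds 45 genes taken by name: 19 Wnt ligands, the 10 frizzled receptors, the receptors Lgr4 and Lgr5, the nuclear factors Tcf7 and Lef1, 5 feedback inhibitors of the cytoplasm or membrane (Axin2, Nkd1, Nkd2, Rnf43 and Znrf3) and 7 secreted inhibitors (Notum, Dkk1, Dkk2, Dkk3, Sfrp1, Sfrp2 and Wif1). All 45 were found by symbol among the 45232 genes counted. Of these, 36 had enough counts to be tested, along with 18176 genes in all, and 9 did not. Of the tested genes, 20 averaged at least 1 scaled CPM over all libraries with at least 2-fold between their highest and lowest group means, and their values are given at length.

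Each culture carried a doxycycline-inducible pCW construct for wild-type FOXA1 (WT), for the FOXA1 variants FE255del or R219S, or the empty vehicle (EV). Cells sorted for DsRED were seeded as 3 cultures per construct, and 500 ng/mL doxycycline was used to switch on a FOXA1-2A-DsRED fusion. The 12 groups are WT, FE255del, R219S and EV cultures, each at day 0, day 1 and day 11, with 3 libraries a group, and the names in the deposited data mark day 0 as without doxycycline. All 12 groups are primary mouse prostate organoid cultures, and the sources used here give no strain, age or host genotype. The cultures of 1 construct come from 1 sorted population, so p-values measure the spread between its cultures, and a difference between constructs cannot be told apart from a difference between their sorted populations.

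Wnt ligands are secreted, lipid-modified proteins that bind frizzled receptors together with LRP co-receptors. In the canonical branch this keeps beta-catenin from being degraded, and beta-catenin then acts in the nucleus with LEF and TCF factors such as Lef1 and Tcf7. Several of the genes it switches on, among them Axin2, Nkd1, Rnf43, Znrf3 and Notum, limit the signal again, and Axin2 is commonly read as a gauge of it. In the prostate, Wnt signals act in the budding of the gland and in the growth of its epithelial progenitors. FOXA1 is a forkhead factor of the prostate epithelium that opens chromatin and works with the androgen receptor.

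Library totals ran from 61476938 to 102385337 counts. Levels are given as scaled CPM, that is CPM computed on the library total multiplied by edgeR's TMM factor, and differences as log2 fold changes with their SE from 1 edgeR quasi-likelihood model of all 12 groups. A gene passed the test where its p, adjusted by the Benjamini-Hochberg method over 18176 genes in that comparison, was under 0.05. Foxa1, which checks the labels, had 414 ± 4.69, 320.2 ± 27.1 and 309 ± 5.11 scaled CPM in WT, FE255del and R219S cultures at day 1, against 227 ± 4.99 in EV (SD, n = 3 each). At day 11 Foxa1 had 269 ± 14.3, 295 ± 25.7 and 268 ± 29.6, against 230.2 ± 12.2 in EV (0.22 ± 0.06, 0.36 ± 0.06 and 0.22 ± 0.06 on the log2 scale), and R219S replicate 2 (242) stood beside the highest EV library (241). At day 0 Foxa1 had 18661, 16730 and 20653 counts in WT, at library totals of 73499697, 64130500 and 81381687. EV then had 16387, 16107 and 15563, at totals of 71745382, 71712779 and 67376019. Relative to these totals WT was already above EV at day 0, so its day 11 difference is not measured from a common start. The sources used here do not name the species of the FOXA1 cDNA. The epithelial markers Epcam and Cdh1 summed to 1618 to 3113 scaled CPM over the libraries, against 0.638 to 2.81 for 6 fibroblast markers, of which Col1a2, Pdgfrb, Thy1 and Lum had a median of 0.

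The start of 4 of these genes is shown here because they show the main patterns described below: Lef1 and Wif1, which were high with some constructs, and Axin2 and Wnt7a, which were low with all of them at day 1. Each sequence is the 250 bases before the RefSeq start site (RefSeq, GRCm38.p6), on the gene's own strand, and capitals mark a 7-letter forkhead sequence. The letters searched were TGTTTAC and TGTTTGC on both strands.
Lef1 (chr3:131110047-131110296, plus strand): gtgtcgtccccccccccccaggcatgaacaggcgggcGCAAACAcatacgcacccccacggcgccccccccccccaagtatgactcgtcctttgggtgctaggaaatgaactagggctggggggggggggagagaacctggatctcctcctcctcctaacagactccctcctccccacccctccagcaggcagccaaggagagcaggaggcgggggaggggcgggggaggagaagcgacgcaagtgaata
Wif1 (chr10:121033754-121034003, plus strand): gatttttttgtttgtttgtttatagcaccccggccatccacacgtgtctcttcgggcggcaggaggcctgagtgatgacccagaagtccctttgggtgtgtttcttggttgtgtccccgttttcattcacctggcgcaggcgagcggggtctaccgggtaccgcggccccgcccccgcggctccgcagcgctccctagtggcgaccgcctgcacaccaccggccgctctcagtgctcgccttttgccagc
Axin2 (chr11:108920099-108920348, plus strand): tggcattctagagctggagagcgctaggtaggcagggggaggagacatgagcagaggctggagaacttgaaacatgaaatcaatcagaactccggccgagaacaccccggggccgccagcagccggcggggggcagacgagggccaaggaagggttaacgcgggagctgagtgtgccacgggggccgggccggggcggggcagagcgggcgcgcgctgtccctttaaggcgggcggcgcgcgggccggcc
Wnt7a (chr6:91411354-91411603, minus strand): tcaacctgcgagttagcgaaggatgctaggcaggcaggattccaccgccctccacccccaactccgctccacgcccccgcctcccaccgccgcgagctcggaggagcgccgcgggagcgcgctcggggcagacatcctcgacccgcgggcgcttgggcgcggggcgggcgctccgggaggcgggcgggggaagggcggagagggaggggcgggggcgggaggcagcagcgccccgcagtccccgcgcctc
The Lef1 window shown held 1 match, GCAAACA on the strand shown, which is TGTTTGC on the other, at base -213 from the start site, and the other windows shown held none. RefSeq gives 4 windows for Lef1: one that overlaps the window shown holds the same match, and those of the other start sites hold none. RefSeq windows were matched by symbol to 32 of the 45 genes. Of these, 3 (9.375%) held a forkhead sequence in 1 window or more, Lef1, Fzd10 and Wnt1, beside 8.222% of 27025 genes with windows. The TCF and LEF letters CTTTGAT and CTTTGAA, on both strands, were in the windows of 3 of the 32 genes (9.375%), Wnt5b, Wnt11 and Dkk1, beside 8.633% of all genes. The share of Wnt genes with either sequence was close to that of all genes, and a match describes letters only.

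Levels between genes were compared as scaled CPM per kilobase of exon. In EV organoids at day 0 the highest of the 45 were Fzd6 (31.6 ± 0.0928), the R-spondin receptor Lgr4 (30.8 ± 0.325), Wnt7b (30.5 ± 1.35) and Fzd7 (29.6 ± 0.969; SD, n = 3 each), followed by Wnt10a (24.2 ± 1.32). Lgr4, Wnt7b and Fzd7 did not differ beyond their spread. Axin2 (17.7 ± 0.403), Tcf7 (16.7 ± 0.777), Rnf43 (14 ± 0.194), Wnt4 (13.1 ± 0.605) and Wif1 (12.1 ± 1.06) came next, and Wnt4 and Wif1 did not differ beyond their spread. The main ligands of the uninduced EV organoids were therefore Wnt7b, Wnt10a and Wnt4, with Wnt7a at 3.41 and Wnt9a at 2.91 and each of the other ligands under 0.5. Wif1 reached 108 ± 8.86 per kilobase in FE255del cultures at day 1 and 121 ± 26.1 in R219S cultures at day 11, the highest values of any of the 45 genes in any group.

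**Figure D1:**
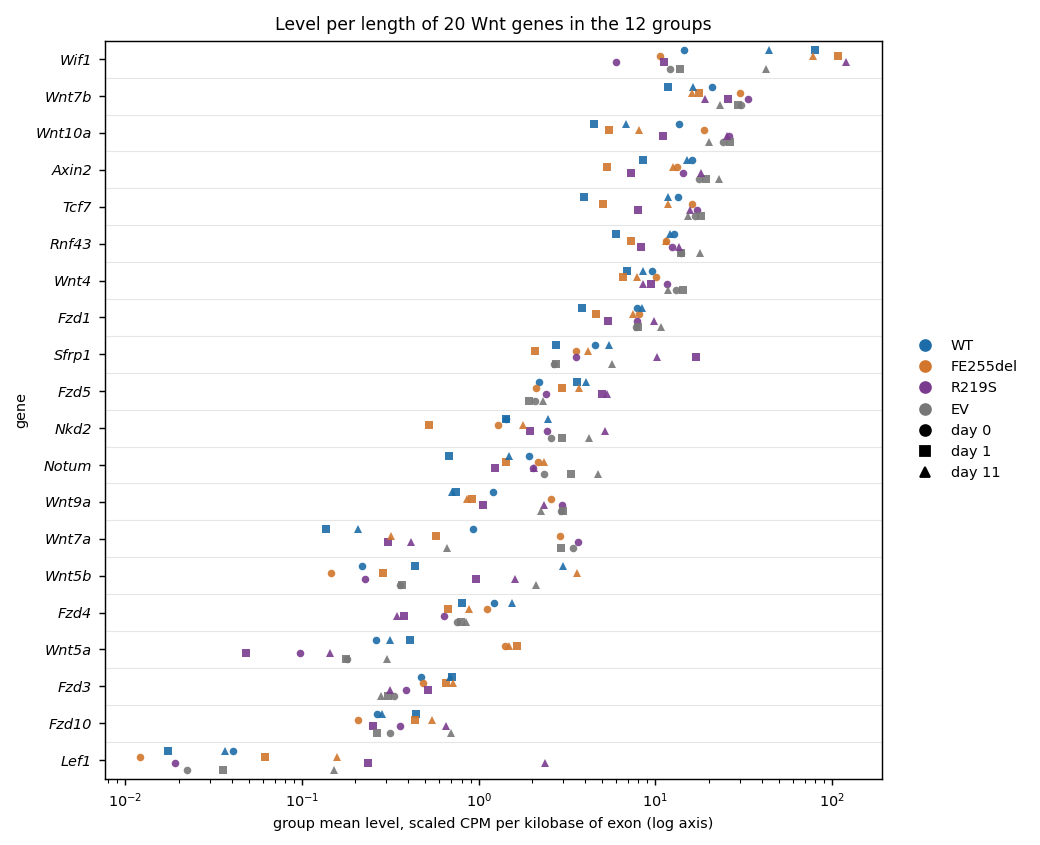
Group mean levels of 20 Wnt genes in scaled CPM per kilobase of exon, on a log axis, with colours for the constructs and shapes for the days. Wif1 spans from 6.0 in R219S cultures at day 0 to 121 in R219S cultures at day 11, while Wnt7b and Axin2 move within a narrower band and Lef1 is highest in R219S cultures at day 11.

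The first comparison sets each FOXA1 construct against EV cultures of the same day, 1 day after induction. The 3 comparisons share the EV libraries. In WT cultures 8 of the 36 tested genes were higher and 21 lower (22.2% and 58.3%), beside 60.5% of all genes called, 29.6% higher and 30.9% lower. In FE255del cultures 8 were higher and 20 lower (22.2% and 55.6%), beside 53.2% of all genes, 25.5% higher and 27.7% lower. In R219S cultures 7 were higher and 16 lower (19.4% and 44.4%), beside 48.5% of all genes, 23.2% higher and 25.3% lower. Lower calls thus took a larger share of the Wnt genes than of all genes in each construct. The share of higher calls was close to that of all genes in FE255del and R219S and somewhat lower in WT. The median log2 fold change of the 36 genes was -0.61 in WT, -0.40 in FE255del and -0.15 in R219S, beside -0.01, -0.03 and -0.04 for all genes. With each library scaled by its total count alone, the median of all genes in WT moved up by 0.117, the share of higher calls among all called genes was 60.8% in WT and 61% in FE255del in place of 49.0% and 48.0%, and the Wnt genes still gave 8 higher and 19 lower in WT and 10 higher and 19 lower in FE255del.

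At day 11 the WT and FE255del organoids still had mostly lower calls, with 6 higher and 19 lower in WT (40.6% of all genes called, 21.0% higher and 19.7% lower) and 7 higher and 18 lower in FE255del (42.2% of all genes, 22.6% higher and 19.6% lower). The R219S organoids had 13 higher and 8 lower (32.1% of all genes, 17.7% higher and 14.4% lower). The lower calls made up 52.8% of the 36 genes in WT and 50% in FE255del, above the share among all genes, and 22.2% in R219S. Higher calls made up 36.1% in R219S, also above the share among all genes. With total-count scaling, the share of higher calls among all called genes in R219S at day 11 was 42.6% in place of 55.2%, and 13 of the Wnt genes were higher and 10 lower.

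Markers of cell state differed on the same days. The basal list (Krt5, Krt14, Trp63 and Itga6, all detected in every group) summed to 2759 to 2887, 1481 to 1591 and 4748 to 4872 scaled CPM in WT, FE255del and R219S libraries at day 1, against 7464 to 8179 in EV. The squamous list (Krt6a, Krt10, Ivl and Sprr1b, all detected) summed to 123 to 139, 109 to 121 and 598 to 606, against 802 to 847 in EV. Both sums were lowest in WT and FE255del, and almost all of the squamous sum was Krt6a. Not every gene of the lists fell there. Itga6 had 34120, 38483 and 34629 counts in WT, which overlapped with the EV counts given below. Krt10 had 221, 243 and 214 in WT and 221, 262 and 171 in FE255del, also overlapping with EV. In R219S the sums hid genes that went the other way. Krt10 had 486, 540 and 567 counts, against 228, 244 and 230 in EV, and Trp63 had 21523, 22858 and 22609, against 19345, 19849 and 19383. Itga6 had 35446, 33510 and 33008, against 34793, 34718 and 35044, while Krt5, Krt14, Krt6a, Ivl and Sprr1b were lower than in every EV library. The luminal list (Krt8, Krt18, Cd24a and Tmprss2) summed to 2085 to 2199.7, 2305 to 2328 and 4231 to 4378, against 1932 to 2049.5 in EV. In WT and FE255del the genes of this list parted. Krt8 had 9335, 9518 and 8584 counts in WT and 13621, 14835 and 12931 in FE255del, against 27008, 29369 and 29641 in EV. Krt18 had 29919, 29950 and 30076 in WT and 33165, 37063 and 34316 in FE255del, against 40545, 40922 and 43092. Cd24a had at least 70909 counts in these libraries, against at most 46897 in EV, and Tmprss2 at least 39050, against at most 20786. In R219S the sum was carried by Cd24a (3575, 3468 and 3460.4 scaled CPM against 651, 691 and 685 in EV). Krt8 there had 256, 255 and 235 against 393, 436 and 433, and Krt18 388, 385 and 379 against 589, 608 and 629. Tmprss2 had 159, 147 and 156 against 298, 300.3 and 303, and each of these lay below every EV library. At day 11 the basal list summed to 4245 to 5230.2, 4551 to 4671 and 9983 to 10996, against 8838 to 9655 in EV, with R219S just above EV and WT and FE255del well below it. The smooth muscle list (Acta2, Myh11 and Des) summed to 27.4 to 29.6, 8.13 to 13.7 and 26.7 to 33.0 at day 11, against 6.02 to 11.5 in EV, almost all of it Acta2, and Des had no more than 0.132 in any library. Endothelial markers, led by Pecam1, summed to 4.12 to 4.61 in WT and 6.38 to 6.99 in FE255del at day 1, against 0.482 to 0.668 in EV, with Cdh5 at 0.0297 or less in every library. The part of these markers in the Wnt gene differences was not tested, and in bulk RNA fewer cells of a type and less RNA per cell cannot be told apart.

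**Figure D2:**
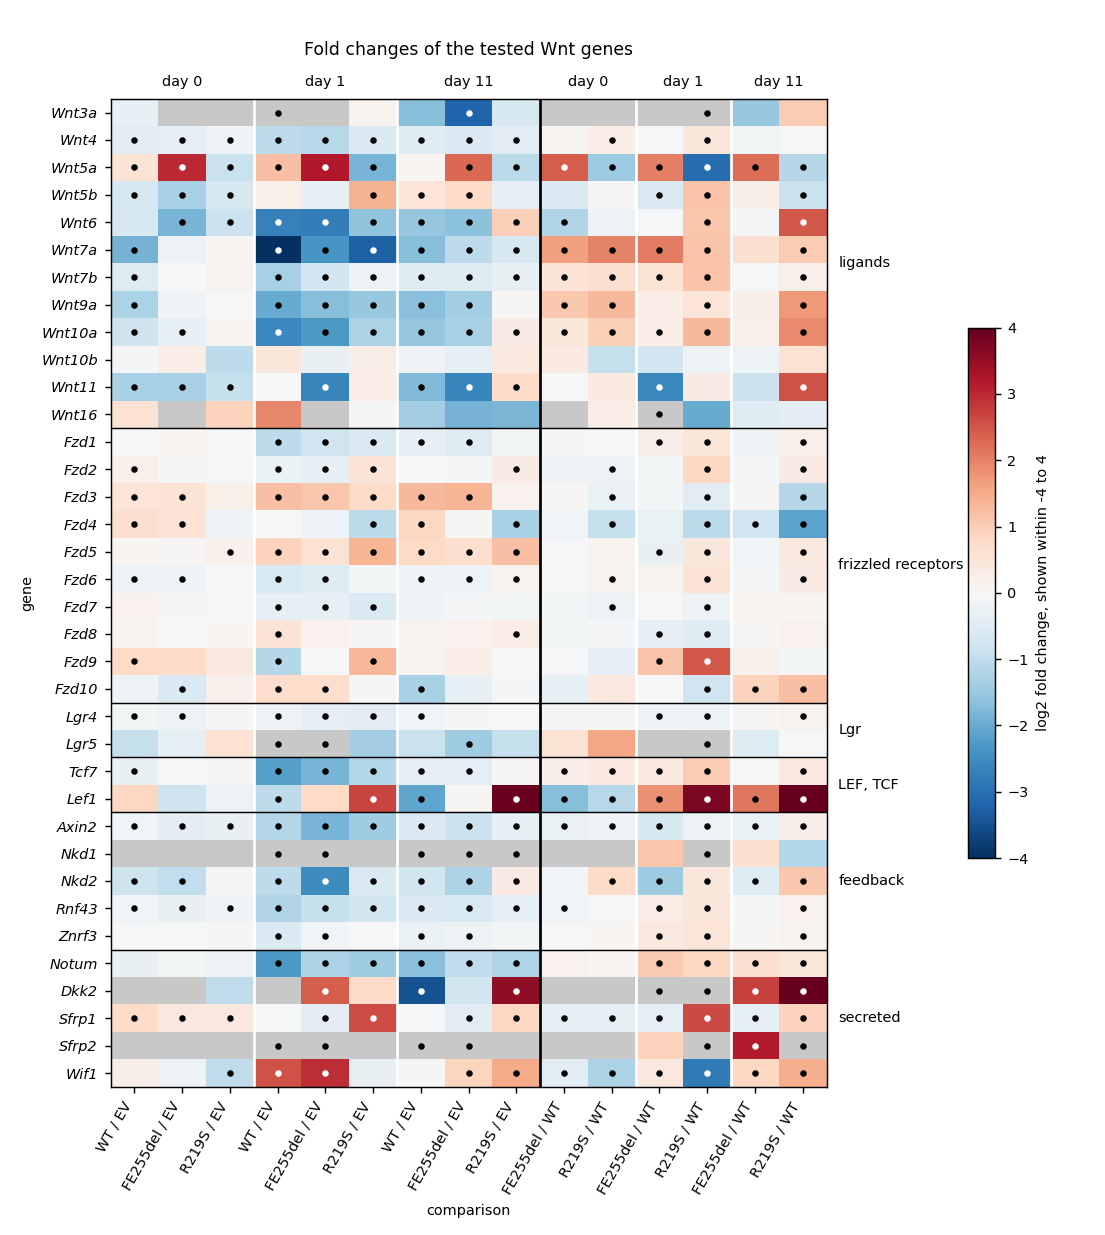
Log2 fold changes of the 36 tested Wnt genes, grouped by role, in 15 comparisons of constructs on the same day. Colour runs from lower (-4) to higher (4), dots mark adjusted p under 0.05, and grey marks comparisons with 3 or fewer counts in 1 group. The ligands and feedback inhibitors show mostly lower values against EV at day 1, and Lef1, Sfrp1 and Dkk2 are high in R219S at day 11.

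Among the 12 tested ligands, 6 were lower than in EV with each of the 3 constructs at day 1: Wnt10a, Wnt7a, Wnt7b, Wnt4, Wnt9a and Wnt6. With the further ligand named next, 7 of the 12 were lower in each construct, beside 30.9%, 27.7% and 25.3% of all genes in WT, FE255del and R219S. That ligand was Wnt3a in WT, Wnt11 in FE255del and Wnt5a in R219S, and 1 was higher, Wnt5a in WT and FE255del and Wnt5b in R219S. Wnt10a (chr1:74791516-74804179, mm10), a ligand known from teeth, hair and skin, had 10.1, 12.5 and 10.6 scaled CPM in WT cultures, 13.2, 14 and 13.4 in FE255del, 28.4, 26.8 and 26.2 in R219S and 61.9, 66.9 and 68.4 in EV at day 1. Every induced library lay below every EV library, and R219S libraries lay between those of EV and those of the other constructs. The log2 fold change against EV was -2.57 ± 0.10 in WT, -2.28 ± 0.10 in FE255del and -1.28 ± 0.10 in R219S (adjusted p = 1.7e-19, 3.6e-18 and 1.6e-12). The R219S level was higher than that of WT (1.30 ± 0.10, adjusted p = 2.5e-12). At day 11 Wnt10a stood at 16.8 ± 3.15 in WT and 19.8 ± 1.64 in FE255del, below the 49.4 ± 4.27 of EV (-1.56 ± 0.10 and -1.32 ± 0.10, adjusted p = 6.6e-14 and 1.9e-12). In R219S it was 62.7 ± 8.65, above EV (0.34 ± 0.09, adjusted p = 0.005), a call lost without R219S day 11 replicate 2 (adjusted p = 0.0814).

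Wnt7a (chr6:91363981-91411363), a ligand of the female reproductive tract and limb, was the ligand furthest below EV at day 1 in WT and R219S. It had 0.299, 0.491 and 0.516 scaled CPM in WT, 1.75, 2.06 and 1.65 in FE255del, 1.19, 0.818 and 0.898 in R219S and 9.10, 8.73 and 10.2 in EV. None of the induced libraries came near the EV range, and WT was lowest. Against EV the log2 fold changes were -4.42 ± 0.21, -2.36 ± 0.18 and -3.27 ± 0.19 in WT, FE255del and R219S (adjusted p = 4.3e-19, 1.6e-13 and 2.7e-16). WT cultures were already low at day 0, with 2.93 ± 0.252 against 10.8 ± 0.572 in EV (-1.88 ± 0.17, adjusted p = 1.9e-10), whereas FE255del (-0.24 ± 0.16, adjusted p = 0.332) and R219S (0.09 ± 0.16, adjusted p = 0.748) did not pass the test then. In EV itself Wnt7a was 2.10 ± 0.503 at day 11, lower than at day 0 (-2.36 ± 0.18, adjusted p = 5.4e-13). The day 11 differences of the constructs from EV were smaller, at -1.69 ± 0.21, -1.06 ± 0.20 and -0.68 ± 0.19, and the R219S call was lost when only the compared groups were fitted (adjusted p = 0.0831), without EV day 11 replicate 1 (0.0739) and without R219S day 11 replicate 3 (0.0672).

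Wnt7b and Wnt4, among the most abundant ligands, were lower in the induced cultures in a graded way. Wnt7b, known from lung, skin and kidney epithelia, had 54.4, 62.7 and 56.2 in WT, 87.5, 85.2 and 87.3 in FE255del, 131, 123 and 126 in R219S and 140.1, 141 and 153 in EV at day 1. The groups did not overlap, with WT lowest and R219S nearest to EV. The fold changes against EV were -1.32 ± 0.07, -0.74 ± 0.06 and -0.19 ± 0.06 (adjusted p = 1.7e-18, 6.4e-12 and 0.011), and the small R219S difference lost its call without EV day 1 replicate 3 (adjusted p = 0.0805) or R219S day 1 replicate 2 (0.0539). Wnt4, a ligand of kidney, gonad and mammary gland, had 28.8 ± 1.42 in WT, 27.7 ± 0.867 in FE255del and 39.6 ± 1.21 in R219S, against 60.2 ± 1.27 in EV (SD, n = 3 each). Its fold changes were -1.06 ± 0.06, -1.12 ± 0.06 and -0.60 ± 0.06 at day 1 and -0.47 ± 0.06, -0.58 ± 0.06 and -0.46 ± 0.06 at day 11. For Wnt4 every library of a FOXA1 construct lay below every EV library on both days.

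Wnt9a had 2.65, 2.04 and 2.72 scaled CPM in WT, 2.88, 2.88 and 3.39 in FE255del, 3.57, 3.47 and 3.52 in R219S and 10.6, 9.87 and 9.59 in EV at day 1. The 3 constructs lay close together, at -2.02 ± 0.13, -1.72 ± 0.12 and -1.51 ± 0.12 (log2 fold change) against EV (adjusted p = 6.7e-16, 5.4e-14 and 1.3e-12). At day 11 the constructs had parted. WT and FE255del held 2.35 ± 0.278 and 2.84 ± 0.416, while R219S had 7.81 ± 1.22 beside 7.50 ± 1.08 in EV (0.06 ± 0.12, adjusted p = 0.765), and R219S was higher than WT (1.73 ± 0.13, adjusted p = 1.2e-13). Wnt6, under 1 scaled CPM at day 1, was also lower in all 3 at day 1, at 0.106 ± 0.0487, 0.102 ± 0.0443 and 0.228 ± 0.0666 against 0.700 ± 0.111 in EV (-2.71 ± 0.35, -2.76 ± 0.36 and -1.61 ± 0.32). At day 11 it was 2.32 ± 0.452 in R219S and 1.20 ± 0.269 in EV, and now higher in R219S (0.95 ± 0.26, adjusted p = 0.005).

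Wnt5a and Wnt5b, ligands best known for signalling without beta-catenin, followed other patterns. Wnt5a (chr14:28504750-28527448) had 3.40, 3.18 and 2.97 in WT, 12.5, 13.7 and 12.3 in FE255del, 0.226, 0.367 and 0.544 in R219S and 1.28, 1.53 and 1.36 in EV at day 1. FE255del libraries were the highest and R219S libraries the lowest, with no overlap between any groups. Differences were there before induction too: at day 0 the means were 2.06 ± 0.202, 11.0 ± 1.23 and 0.758 ± 0.218, against 1.41 ± 0.0839 in EV, and FE255del was higher (2.97 ± 0.18, adjusted p = 2.4e-14) and R219S lower (-0.90 ± 0.20, adjusted p = 0.002) than EV. Measured as the change since day 0 against the change of EV, FE255del did not pass the test at day 1 (0.24 ± 0.24, adjusted p = 0.485). WT rose (0.64 ± 0.26, adjusted p = 0.040) and R219S fell (-0.97 ± 0.31, adjusted p = 0.012) relative to EV by the same measure. The WT call was lost without any 1 of 7 of the 12 libraries compared (adjusted p = 0.0606 to 0.0881), and the R219S call without R219S replicate 1 of day 0 (0.0558) or day 1 (0.0718) and with the compared groups alone (0.0555). Wnt5b, the only tested ligand that was higher than EV in R219S at day 1 (2.56 ± 0.556 against 0.976 ± 0.243, 1.39 ± 0.21, adjusted p = 6.0e-07), reached higher levels later. At day 11 it had 7.93 ± 1.13, 9.60 ± 0.992 and 4.24 ± 0.567 in WT, FE255del and R219S, and 5.58 ± 0.583 in EV. WT and FE255del were above EV (0.51 ± 0.17 and 0.78 ± 0.17, adjusted p = 0.018 and 3.6e-04), and the WT call was lost without EV day 11 replicate 2 (adjusted p = 0.0907) or WT day 11 replicate 3 (0.111).

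Wnt11 set the constructs apart among the low ligands. At day 1 it had 0.865 ± 0.0828, 0.141 ± 0.0803 and 1.08 ± 0.116 in WT, FE255del and R219S, against 0.883 ± 0.262 in EV, and FE255del, which was lower, passed the test (-2.65 ± 0.37, adjusted p = 1.7e-07). FE255del was also lower than WT (-2.61 ± 0.37, adjusted p = 3.9e-07). At day 11 WT (0.541 ± 0.194) and FE255del (0.294 ± 0.0214) were lower than EV (1.84 ± 0.262), and R219S (3.15 ± 1.04) was higher (0.78 ± 0.27, adjusted p = 0.024), a call lost without EV day 11 replicate 3 (adjusted p = 0.118) or R219S day 11 replicate 2 (0.238). Wnt3a, Wnt10b and Wnt16 stayed under 0.25 scaled CPM in every group mean. Wnt3a in WT at day 1 had 1 count over 3 libraries against 12 in EV. Wnt3a was thus 13.9-fold lower, with a 95% exact interval of 2.06 to 595, which covers counting error only and takes counts as independent. Its call was lost without EV day 1 replicate 1 (adjusted p = 0.0838), WT day 1 replicate 1 (0.079) or WT day 1 replicate 3 (0.0784), and its log2 value of -3.35 ± 1.43 became -5.13 without WT day 1 replicate 2, which held the 1 count.

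**Figure D3:**
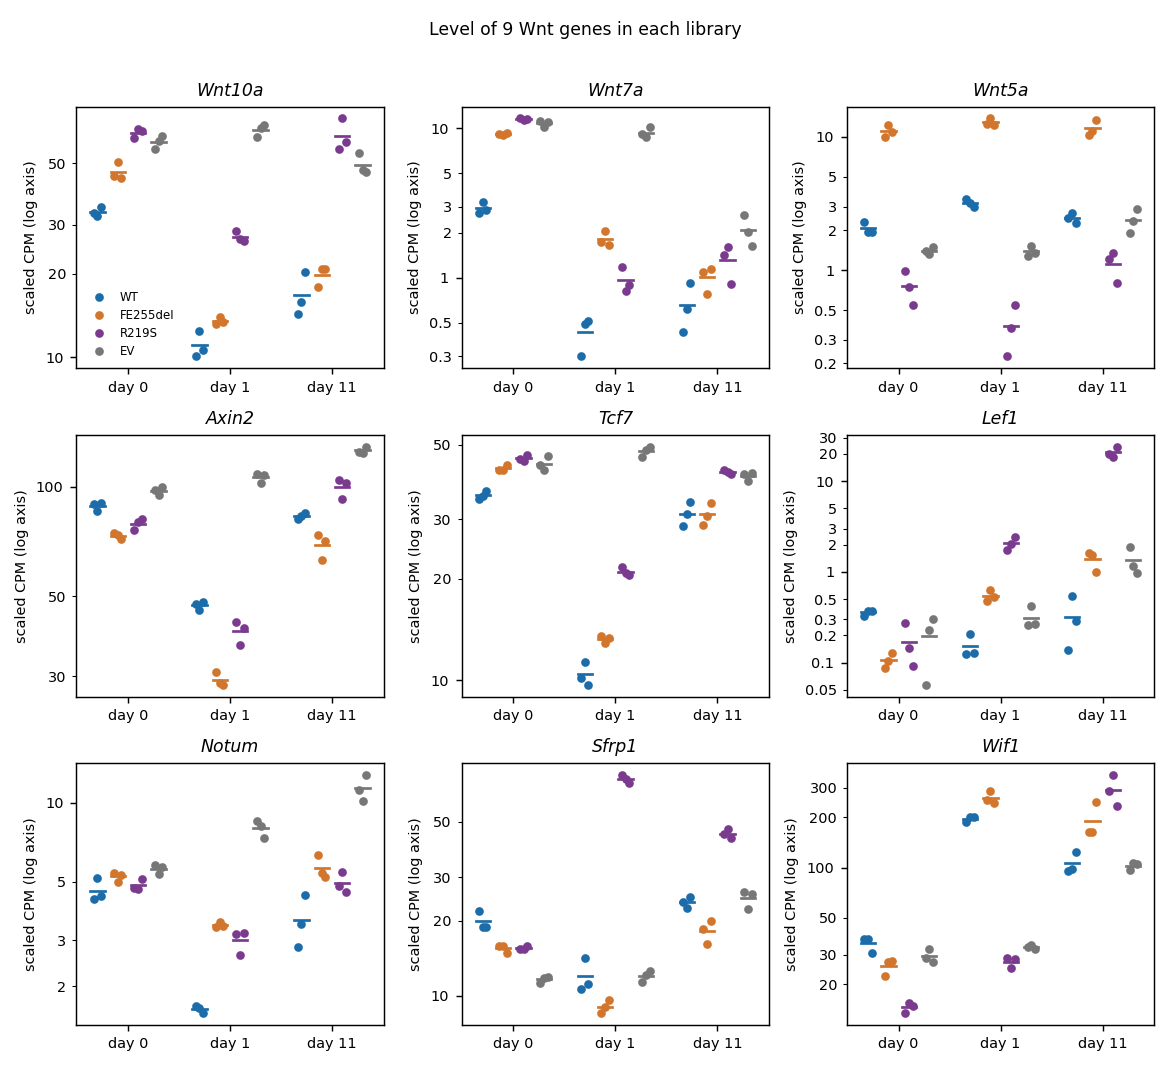
Scaled CPM of 9 Wnt genes in each of the 36 libraries, on log axes, by day and by construct (WT, FE255del, R219S and EV from left to right), with bars at the group means. At day 1 Wnt10a, Wnt7a, Axin2, Tcf7 and Notum of all 9 induced libraries lie below the 3 EV libraries, while Wif1 is high in WT and FE255del and Sfrp1 in R219S.

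The frizzled receptors, which bind Wnt ligands at the cell surface, moved in both directions. At day 1, 4 of the 10 were higher and 5 lower in WT, 3 higher and 4 lower in FE255del, and 4 higher and 3 lower in R219S. Among all genes 29.6% were higher and 30.9% lower in WT, 25.5% and 27.7% in FE255del, and 23.2% and 25.3% in R219S. Fzd5 was higher in all 3 constructs: it had 25.5, 25.1 and 24.5 in WT, 21.7, 20.6 and 18.9 in FE255del, 34.9, 33.9 and 34.8 in R219S and 13.9, 12.5 and 13.6 in EV. All induced libraries lay above all EV libraries, R219S highest. The fold changes were 0.91 ± 0.07, 0.61 ± 0.07 and 1.37 ± 0.07 (adjusted p = 6.0e-13, 9.7e-09 and 2.4e-17), and at day 11 0.80 ± 0.07, 0.68 ± 0.07 and 1.20 ± 0.07. In the GENCODE annotation of GRCm38 another gene covers 1233 exon bases of Fzd5 on the opposite strand, and whether reads were assigned by strand is not given in the sources used here. Fzd3, a receptor of planar polarity and axon guidance, had 9.08 ± 0.749, 8.41 ± 0.755 and 6.66 ± 0.473 in WT, FE255del and R219S, against 3.92 ± 0.107 in EV (1.21 ± 0.10, 1.10 ± 0.10 and 0.76 ± 0.10). By day 11 it was higher in WT (1.29 ± 0.10, adjusted p = 5.2e-13) and FE255del (1.34 ± 0.10, adjusted p = 1.7e-13), while R219S did not pass the test (0.16 ± 0.10, adjusted p = 0.264) and was lower than WT (-1.14 ± 0.10, adjusted p = 5.7e-12).

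Fzd4, which also serves as the receptor of Norrin, was lower in R219S. At day 1 it had 5.31, 5.76 and 5.09 in WT, 4.33, 4.45 and 4.77 in FE255del, 2.61, 2.03 and 2.97 in R219S and 5.42, 5.20 and 5.39 in EV. At day 11 it had 10.4, 10.8 and 9.84 in WT, 5.60, 5.81 and 6.40 in FE255del, 2.36, 2.10 and 2.53 in R219S and 4.96, 6.02 and 6.14 in EV. R219S libraries were the lowest on both days and WT libraries the highest at day 11. Against EV, R219S was -1.07 ± 0.12 at day 1 and -1.29 ± 0.12 at day 11 (adjusted p = 1.0e-09 and 4.2e-11), and WT was higher at day 11 (0.86 ± 0.11, adjusted p = 3.6e-08). WT was already higher than EV at day 0 (7.14, 8.91 and 8.49 against 5.0, 4.84 and 5.45, 0.68 ± 0.11, adjusted p = 9.2e-06), and its change from day 0 to day 11 did not pass the test against that of EV (0.18 ± 0.15, adjusted p = 0.479). R219S was below WT at day 11 by the largest margin of any frizzled (-2.15 ± 0.12, adjusted p = 2.8e-17), and FE255del was below WT too (-0.81 ± 0.11, adjusted p = 5.5e-07).

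Fzd1 was lower in all constructs at day 1, at 16.2 ± 1.88, 19.3 ± 1.39 and 22.8 ± 0.672 in WT, FE255del and R219S against 33.7 ± 0.548 in EV (-1.06 ± 0.08, -0.81 ± 0.08 and -0.57 ± 0.08). Its levels at day 0 had been alike, between 32.6 and 34.1 in group means, and no construct passed the test then. Fzd7, a receptor known from stem-like cells, was lower as well (-0.36 ± 0.08, -0.35 ± 0.08 and -0.56 ± 0.08 in WT, FE255del and R219S). Fzd6, which orders hair follicles in mouse skin, was lower in WT and FE255del (-0.65 ± 0.04 and -0.55 ± 0.04), and R219S did not pass the test (-0.10 ± 0.04, adjusted p = 0.059). Fzd2 split the constructs: 11.4 ± 0.724 in WT and 10.6 ± 1.20 in FE255del were below, and 20.1 ± 1.07 in R219S above, the 13.6 ± 0.325 of EV (-0.26 ± 0.07, -0.36 ± 0.07 and 0.56 ± 0.07), though the WT call was lost with total-count scaling (adjusted p = 0.0863). Fzd10 was higher in WT and FE255del at day 1 (0.73 ± 0.18 and 0.72 ± 0.18) and lower in WT at day 11 (0.923 ± 0.0502 against 2.25 ± 0.421 in EV, -1.29 ± 0.17, adjusted p = 1.6e-07). Fzd8 passed the test at day 1 in WT alone (0.54 ± 0.09, adjusted p = 2.2e-06). Fzd9, near 1 scaled CPM or below, was lower in WT (-1.14 ± 0.35) and higher in R219S (1.33 ± 0.30).

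Lgr4, which with R-spondins shields frizzled receptors from removal, was lower in all 3 constructs at day 1, at 151 ± 3.52, 135 ± 4.02 and 132 ± 4.53 in WT, FE255del and R219S against 177 ± 3.46 in EV (-0.23 ± 0.04, -0.39 ± 0.04 and -0.42 ± 0.04). Lgr5, a Wnt target and stem-cell marker of the gut and hair follicle, was near the limit of detection. It had 2 counts over 3 libraries in WT and 2 in FE255del at day 1 against 56 in EV, which is 32.5-fold lower, with a 95% exact interval of 8.58 to 275, in WT and 29.5-fold lower, with a 95% exact interval of 7.80 to 249.7, in FE255del. R219S had 0.102 ± 0.0593 scaled CPM against 0.274 ± 0.0150 in EV and did not pass the test (adjusted p = 0.067).

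Of the nuclear factors, Tcf7 (chr11:52252371-52283014) was lower in every construct at day 1. It had 10.2, 11.3 and 9.72 scaled CPM in WT, 13.6, 12.9 and 13.4 in FE255del, 21.7, 20.8 and 20.5 in R219S and 46.1, 48.1 and 49.3 in EV. The 4 groups did not overlap, in the order WT, FE255del, R219S and EV from low to high. The fold changes against EV were -2.20 ± 0.06, -1.85 ± 0.06 and -1.19 ± 0.06 (adjusted p = 7.7e-26, 9.5e-24 and 8.6e-19), and both variants were higher than WT (0.35 ± 0.06 for FE255del and 1.01 ± 0.06 for R219S). By day 11 Tcf7 stood at 31.2 ± 2.61, 31.1 ± 2.41 and 41.4 ± 0.576, against 40.4 ± 1.27 in EV, and the differences were -0.38 ± 0.06 in WT, -0.38 ± 0.06 in FE255del and, not past the test, 0.04 ± 0.05 in R219S.

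Lef1 (chr3:131110471-131224356) was higher in R219S. At day 1 it had 0.124, 0.207 and 0.126 in WT, 0.480, 0.632 and 0.522 in FE255del, 1.76, 2.03 and 2.41 in R219S and 0.262, 0.416 and 0.263 in EV. At day 11 it had 0.138, 0.535 and 0.288 in WT, 1.62, 1.54 and 0.991 in FE255del, 20, 18.3 and 24.1 in R219S and 1.88, 1.17 and 0.965 in EV. All R219S libraries lay above all others on both days. The log2 fold change of R219S against EV was 2.72 ± 0.33 at day 1 and 3.95 ± 0.28 at day 11 (adjusted p = 2.1e-08 and 3.0e-13), and against WT it was 3.75 ± 0.36 and 6.06 ± 0.33. Lef1 was lower in WT than in EV at day 11 (-2.11 ± 0.34, adjusted p = 4.2e-06). The lower call of WT at day 1 (-1.04 ± 0.46, adjusted p = 0.049) was lost when no filter was applied (adjusted p = 0.116), with RLE scaling (0.0594), a stricter filter (0.0525), total-count scaling (0.0833), halved counts (0.0717) and the replicate numbers as a block (0.0564). It was also lost without EV day 1 replicate 1 (0.0513), 2 (0.208) or 3 (0.0524) and without WT day 1 replicate 1 (0.138) or 3 (0.134). The Lef1 window printed above held a forkhead sequence, and windows of other Lef1 start sites did not. An antisense gene overlaps 1208 exon bases of Lef1, and reads of the pair cannot be told apart if strand was not used.

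Among the feedback inhibitors, Axin2 (chr11:108920349-108950783), the scaffold of the beta-catenin destruction complex, was lower in every construct at day 1. It had 47.6, 45.8 and 48.1 in WT, 30.9, 28.8 and 28.5 in FE255del, 42.4, 36.6 and 40.9 in R219S and 109, 103 and 108 in EV. FE255del was lowest, R219S next and WT nearest to EV, and none of the 4 groups overlapped. Against EV the fold changes were -1.18 ± 0.05, -1.86 ± 0.05 and -1.42 ± 0.05 (adjusted p = 5.4e-20, 8.5e-25 and 1.0e-21), and both variants were lower than WT (-0.68 ± 0.05, adjusted p = 1.2e-12 for FE255del and -0.24 ± 0.05, adjusted p = 1.8e-04 for R219S). Axin2 thus took another order of constructs than Tcf7, where WT was lowest. The day 11 levels were 83.1 ± 1.75, 69.1 ± 5.55 and 99.9 ± 6.56, against 126 ± 2.73 in EV, and all 3 were lower than EV (-0.60 ± 0.05, -0.87 ± 0.05 and -0.33 ± 0.05). An antisense gene shares 209 exon bases with Axin2.

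Rnf43 and Znrf3 are membrane ubiquitin ligases that take frizzled receptors off the surface. Rnf43 had 39.4 ± 1.60, 47.9 ± 0.304 and 54.1 ± 2.87 in WT, FE255del and R219S, against 91.2 ± 0.785 in EV (-1.21 ± 0.05, -0.93 ± 0.05 and -0.75 ± 0.05, adjusted p = 1.7e-21, 3.2e-18 and 1.1e-15), with no overlap between any group and EV. Znrf3 was lower in WT (-0.56 ± 0.06, adjusted p = 4.2e-10), and R219S did not pass the test (-0.05 ± 0.06, adjusted p = 0.557). In FE255del its value of -0.15 ± 0.06 passed the test narrowly, and that call was lost in 12 of 14 alternatives: without any 1 of the 3 EV or 3 FE255del libraries (adjusted p = 0.054 to 0.223), with RLE (0.11) or total-count scaling (0.571), with no filter (0.163) or a stricter one (0.0648), with DESeq2 (0.118) and with the compared groups alone (0.0526). Nkd2, a binding partner of Dishevelled, had 6.93, 7.08 and 6.69 in WT, 2.54, 2.21 and 2.81 in FE255del, 9.27, 9.78 and 9.20 in R219S and 13.5, 14 and 15.6 in EV. FE255del libraries stood well below the rest (-2.51 ± 0.11, adjusted p = 2.4e-20 against EV, and -1.45 ± 0.11, adjusted p = 3.4e-13 against WT). At day 11 Nkd2 was higher in R219S than in EV (25.1 ± 2.05 against 20.2 ± 0.386, 0.31 ± 0.09, adjusted p = 0.007). Its paralogue Nkd1 was the exception among the feedback genes. It had no count in any EV or R219S library at day 1, 76 counts in WT and 151 in FE255del over 3 libraries each, so that it was at least 21.8-fold higher in WT and at least 47.7-fold higher in FE255del than in EV, with 3 counts over the group as the floor. Its level stayed low, at 0.321 ± 0.102 and 0.691 ± 0.270 scaled CPM. At day 11, when EV again had no count, Nkd1 was at least 6.99-fold higher in WT and at least 10.8-fold higher in FE255del than in EV. All of these bounds are too high if both reads of a pair were counted. With halved counts the fitted log2 fold changes of Nkd1 at day 1 were 6.56 in WT and 7.68 in FE255del, in place of 7.55 and 8.66.

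The secreted inhibitors changed in ways of their own. Notum (chr11:120653788-120661175), an enzyme that strips the lipid from Wnt ligands, had 1.68, 1.65 and 1.58 in WT, 3.36, 3.50 and 3.39 in FE255del, 3.16, 2.64 and 3.18 in R219S and 8.52, 8.14 and 7.39 in EV at day 1. It was lower in all 3 constructs, most in WT, with no library in the EV range (-2.29 ± 0.13, -1.23 ± 0.12 and -1.42 ± 0.12, adjusted p = 2.3e-17, 6.8e-11 and 3.3e-12). It remained lower at day 11, at 3.58 ± 0.823, 5.65 ± 0.590 and 4.97 ± 0.447 against 11.4 ± 1.34 in EV (-1.67 ± 0.12, -1.01 ± 0.11 and -1.19 ± 0.12). Antisense genes share 210 and 708 exon bases with Notum.

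Wif1 (chr10:121033960-121100650), which binds and holds back Wnt ligands, was among the most changed genes of the set. At day 1 it had 187, 201 and 199 scaled CPM in WT, 255, 286 and 244 in FE255del, 28.6, 25.1 and 28.2 in R219S and 33.6, 34.5 and 32.7 in EV. WT and FE255del libraries lay far above EV, and R219S libraries just below it. The fold changes were 2.54 ± 0.15 in WT and 2.96 ± 0.15 in FE255del (adjusted p = 4.7e-14 and 3.6e-15), and R219S did not pass the test (-0.30 ± 0.15, adjusted p = 0.108) and was lower than WT (-2.84 ± 0.15, adjusted p = 7.4e-15). Later the order had turned, and at day 11 Wif1 had 95.4, 98.4 and 125 in WT, 162, 163 and 246 in FE255del, 287, 359 and 233 in R219S and 97.1, 106 and 105 in EV. R219S now had the highest mean (1.52 ± 0.14, adjusted p = 2.7e-09 against EV, and 1.47 ± 0.14, adjusted p = 2.1e-09 against WT). Its libraries overlapped with those of FE255del, and R219S was not tested against FE255del. All FE255del libraries lay above all EV libraries, and WT overlapped with EV (0.05 ± 0.14, adjusted p = 0.829).

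Sfrp1 (chr8:23411502-23449632), a decoy that shares the ligand-binding domain of the frizzleds, was high in R219S. At day 1 it had 10.6, 14.2 and 11.2 in WT, 8.55, 9.0 and 9.62 in FE255del, 77.1, 74.0 and 71.5 in R219S and 11.4, 12.1 and 12.6 in EV. The R219S libraries stood far from the others, while WT and EV overlapped. R219S was higher than EV by 2.62 ± 0.08 and than WT by 2.63 ± 0.08 (log2, adjusted p = 1.3e-23 and 4.3e-24), and FE255del was lower than EV (-0.41 ± 0.09, adjusted p = 1.0e-04). At day 11 R219S had 44.7 ± 1.80 against 24.7 ± 2.05 in EV (0.86 ± 0.08, adjusted p = 5.9e-11). Sfrp2 had no count in EV at any day, and at day 11 it had 14 counts in WT and 132 in FE255del over 3 libraries each, 8 of the 14 in WT replicate 3, which is at least 4.45-fold higher and at least 41.9-fold higher than in EV at that floor. The fitted log2 fold change of WT against EV, which depends on the prior count, was 5.24, and 4.55 without WT day 11 replicate 3. Dkk2, a blocker of LRP co-receptors, had 3.02, 2.28 and 2.37 in R219S at day 11 and 0.279, 0.195 and 0.181 in EV (3.54 ± 0.50, adjusted p = 7.8e-07), with WT at 0.0172 ± 0.0152.

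Before induction the constructs already differed in part of the set. At day 0, 6 of the 36 genes were higher and 13 lower in WT (22.7% of all genes called, 9.9% higher and 12.8% lower), 4 higher and 11 lower in FE255del (20.8%, 11.1% and 9.72%) and 2 higher and 8 lower in R219S (20.1%, 13.2% and 6.92%). The lower calls made up 36.1%, 30.6% and 22.2% of the Wnt genes in WT, FE255del and R219S, above the share among all genes. In WT, besides Wnt7a, the ligands Wnt9a (4.03 ± 0.601 against 9.67 ± 0.123 in EV, -1.26 ± 0.12, adjusted p = 7.1e-10), Wnt10a (-0.84 ± 0.10, adjusted p = 6.0e-08), Wnt7b (-0.55 ± 0.06, adjusted p = 3.7e-08) and Wnt4 (-0.47 ± 0.06, adjusted p = 4.7e-07) were lower. Nkd2 was lower in WT (-0.84 ± 0.10) and FE255del (-0.98 ± 0.10), and Sfrp1 was higher in all 3 constructs (0.77 ± 0.08, 0.41 ± 0.08 and 0.42 ± 0.08). Axin2 was lower in FE255del (-0.41 ± 0.05, adjusted p = 2.6e-07) and R219S (-0.30 ± 0.05, adjusted p = 8.4e-05), and Wif1 in R219S (14.6 ± 1.03 against 29.4 ± 2.56 in EV, -1.01 ± 0.16, adjusted p = 6.4e-05). Axin2 was also called lower in WT, a call lost in 7 of 14 alternatives (adjusted p = 0.00489 to 0.168 over the 14). With total-count scaling 1 Wnt gene was higher and 10 lower in R219S, and the share of higher calls among all called genes was 47.2% in place of 65.6%. The R219S count rested on single libraries: it was 5 without R219S day 0 replicate 2 and 6 without EV day 0 replicate 2, in place of 10.

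Because of these earlier differences, the change since day 0 in each construct was set against the change in EV. At day 1, 8 genes rose and 20 fell relative to EV in WT (44.0% of all genes called, 20.2% and 23.8%), 7 rose and 19 fell in FE255del (40.2%, 17.4% and 22.9%), and 8 rose and 15 fell in R219S (39.4%, 16.1% and 23.3%). Falling genes made up 55.6%, 52.8% and 41.7% of the 36, above the share among all genes. With total-count scaling the share of rising calls among all called genes was 57.6%, 59.5% and 54.9% in WT, FE255del and R219S in place of 45.9%, 43.1% and 40.9%, and the Wnt genes gave 8 up and 20 down, 7 up and 17 down, and 8 up and 15 down. Axin2 changed by -1.03 ± 0.07, -1.44 ± 0.07 and -1.11 ± 0.07 and Tcf7 by -1.89 ± 0.08, -1.80 ± 0.08 and -1.24 ± 0.08 (log2, WT, FE255del and R219S). Rnf43 changed by -1.08 ± 0.07, -0.64 ± 0.07 and -0.58 ± 0.07 in the same constructs. By day 11 the counts were 3 up and 9 down in WT (21.4% of all genes, 10.9% and 10.5%), 4 up and 13 down in FE255del (20.5%, 9.44% and 11.1%) and 10 up and 6 down in R219S (27.1%, 12.4% and 14.7%). Axin2 had -0.46 ± 0.07 in WT and -0.45 ± 0.07 in FE255del at day 11, and R219S did not pass the test (-0.03 ± 0.07, adjusted p = 0.809).

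**Figure D4:**
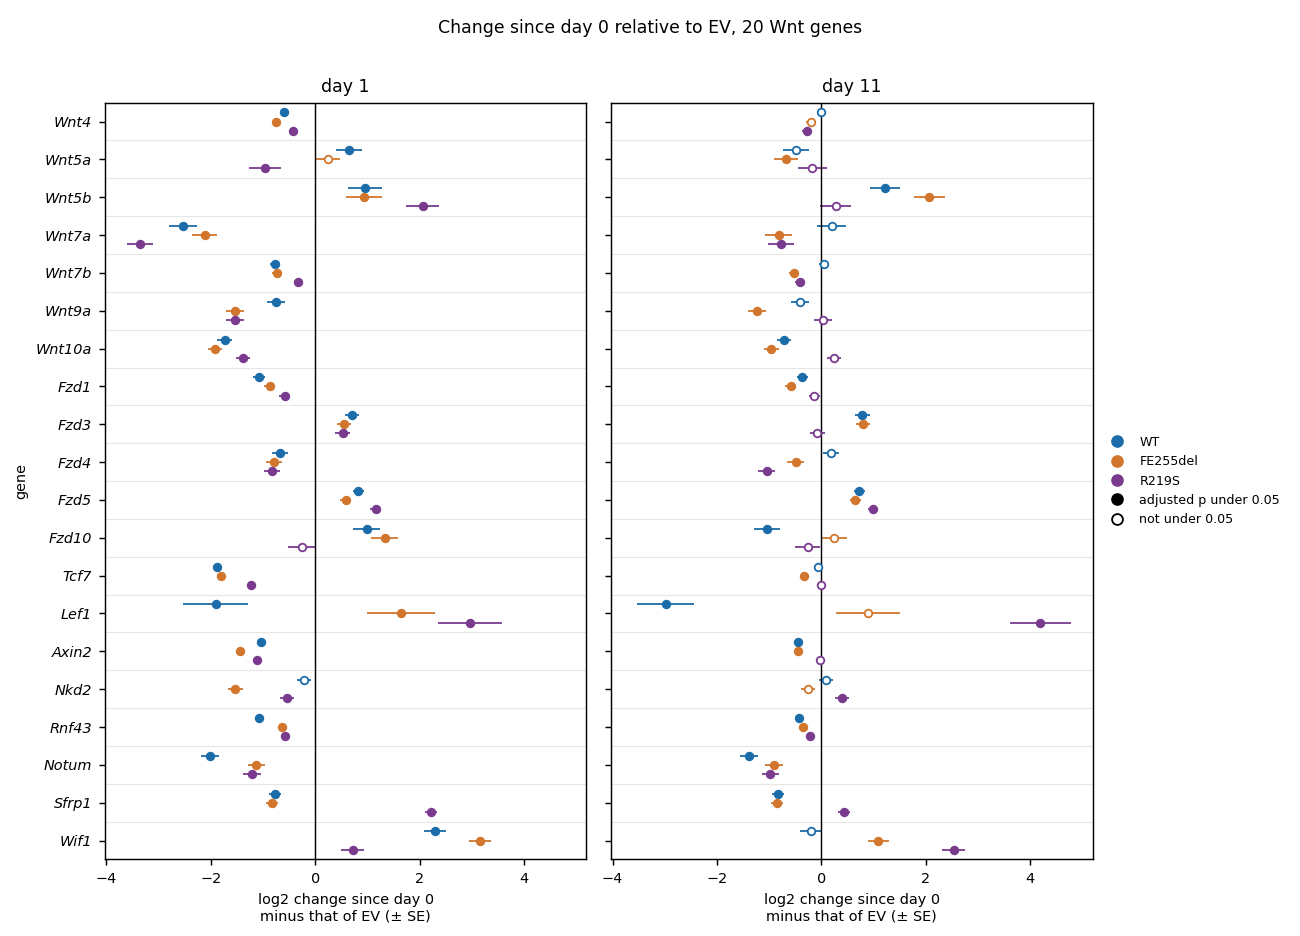
Log2 change since day 0 of each FOXA1 construct minus that of EV, with its SE, for 20 Wnt genes at days 1 and 11; filled points have adjusted p under 0.05. Wnt7a, Wnt10a, Tcf7, Axin2 and Notum lie left of 0 at day 1 in all 3 constructs, and Lef1 and Wif1 in R219S lie furthest right at day 11.

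The variants were also set against WT, the question being where a variant differs from the wild-type protein. FE255del against WT gave 6 higher and 6 lower Wnt genes at day 0 (26.8% of all genes called, 15.7% higher and 11.2% lower), 13 and 9 at day 1 (41.7%, 21.8% higher and 19.9% lower), and 7 and 4 at day 11 (17.7%, 9.75% higher and 7.92% lower). R219S against WT gave 8 higher and 9 lower at day 0 (39.8%, 23.8% higher and 16% lower), 22 and 11 at day 1 (59.6%, 30.5% higher and 29.1% lower), and 22 and 5 at day 11 (48.9%, 24.8% higher and 24.1% lower). Higher calls in R219S thus made up 61.1% of the 36 genes at day 1 and 61.1% at day 11, above the share among all genes. Of the 12 ligands, the day 1 comparison of R219S with WT gave 8 higher and 1, Wnt5a, lower. At day 0, total-count scaling gave 6 higher and 8 lower for FE255del and 7 higher and 10 lower for R219S, and a share of higher calls among all called genes of 44.9% and 43.4% in place of 58.3% and 59.7%. At day 11 the same scaling gave 17 Wnt genes higher and 5 lower in R219S, and a share of 36.7% in place of 50.7%.

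FE255del and WT differed in a few genes on all 3 days. Wnt5a, described above, was higher in FE255del than in WT at day 0 (2.42 ± 0.17), day 1 (2.01 ± 0.16) and day 11 (11.6 ± 1.54 against 2.47 ± 0.215 scaled CPM, 2.23 ± 0.17, adjusted p = 1.8e-12). Axin2 was lower on each day (-0.27 ± 0.05, -0.68 ± 0.05 and -0.27 ± 0.05), and so was Sfrp1 (-0.36 ± 0.08, -0.40 ± 0.08 and -0.38 ± 0.08). Wnt7a was higher at day 0 (1.65 ± 0.17) and day 1 (2.06 ± 0.22), and at day 11 it did not pass the test (0.63 ± 0.23, adjusted p = 0.050). Notum was higher at day 1 (1.06 ± 0.13, adjusted p = 2.6e-08) and day 11 (0.66 ± 0.12, adjusted p = 7.6e-05), and Nkd2 was lower at both (-1.45 ± 0.11 and -0.48 ± 0.10). At day 0, Lef1 in FE255del was lower than in WT (0.107 ± 0.0200 against 0.357 ± 0.0276 scaled CPM, -1.72 ± 0.48, adjusted p = 0.007) and higher at day 1 (1.83 ± 0.41, adjusted p = 4.6e-04) and day 11 (2.16 ± 0.34, adjusted p = 1.1e-05), at levels of 2 scaled CPM or less. Sfrp2, with 132 counts in FE255del and 14 in WT at day 11, was higher in FE255del (3.19 ± 0.61, adjusted p = 5.0e-04; 3.87 without WT day 11 replicate 3).

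At day 0 R219S, set against WT, had higher Wnt7a (1.97 ± 0.17), Wnt9a (1.29 ± 0.12), Wnt10a (0.95 ± 0.10), Nkd2 (0.76 ± 0.10) and Wnt7b (0.68 ± 0.06), which in WT had been lower than in EV on that day, and lower Wif1 (-1.27 ± 0.16), Wnt5a (-1.45 ± 0.20) and Fzd4 (-0.93 ± 0.11). At day 11 Wnt10a had 56.1, 72.5 and 59.4 in R219S and 14.3, 15.9 and 20.4 in WT, and the groups lay far apart (1.90 ± 0.10, adjusted p = 3.5e-16). Nkd2 had 25.1 ± 2.05 against 12 ± 1.09 (1.07 ± 0.09, adjusted p = 6.7e-12), Fzd10 2.14 ± 0.0593 against 0.923 ± 0.0502 (1.21 ± 0.17, adjusted p = 3.8e-07) and Sfrp1 44.7 ± 1.80 against 23.8 ± 1.29 scaled CPM (0.91 ± 0.08, adjusted p = 5.2e-12). Axin2 (0.27 ± 0.05) and Tcf7 (0.41 ± 0.06) were higher too. Wnt5a (-1.14 ± 0.18) and Wnt5b (-0.90 ± 0.18) were lower, on the other side from Wnt7a, Wnt9a and Wnt10a.

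Several genes lower at day 1 were still lower, by less, at day 11 in WT and FE255del. Rnf43 had 79.3 ± 6.25, 75.1 ± 0.752 and 88.8 ± 4.13 scaled CPM in WT, FE255del and R219S, against 117 ± 4.23 in EV (-0.57 ± 0.05, -0.64 ± 0.05 and -0.40 ± 0.05). Wnt7b had 80.5 ± 10.5, 78.5 ± 5.64 and 93.6 ± 4.43, against 114 ± 6.34 in EV (-0.50 ± 0.06, -0.54 ± 0.06 and -0.28 ± 0.06). Fzd1 was lower in WT (-0.35 ± 0.07, adjusted p = 2.3e-04) and FE255del (-0.52 ± 0.08, adjusted p = 5.2e-07), and R219S did not pass the test (-0.12 ± 0.07, adjusted p = 0.249). Nkd2 was lower in WT (-0.76 ± 0.09, adjusted p = 2.6e-08) and FE255del (-1.24 ± 0.09, adjusted p = 4.7e-13), where R219S was higher. Whether the day 1 and day 11 differences themselves differ was not tested.

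In EV organoids the set hardly moved in the first day. Notum alone passed the test (8.01 ± 0.577 at day 1 and 5.62 ± 0.232 at day 0, 0.51 ± 0.12, adjusted p = 0.018; 1.43% of all genes called), and that call was lost without EV day 0 replicate 1 (adjusted p = 0.0611) or 2 (0.101) or EV day 1 replicate 1 (0.0904) or 2 (0.0822). By day 11, 23 genes were higher and 5 lower than at day 0 (47.6% of all genes, 23.1% higher and 24.6% lower), so that higher calls made up 63.9% of the Wnt genes. Axin2 had 97.7 ± 2.22, 107 ± 3.26 and 126 ± 2.73 scaled CPM at days 0, 1 and 11 (0.37 ± 0.05, adjusted p = 2.6e-07 at day 11 against day 0). Wif1 (1.80 ± 0.15, adjusted p = 1.8e-10), Wnt5b (2.54 ± 0.20, adjusted p = 2.1e-12), Lef1 (2.78 ± 0.37, adjusted p = 1.5e-07), Sfrp1 (1.08 ± 0.08, adjusted p = 7.2e-13) and Notum (1.01 ± 0.12, adjusted p = 5.2e-09) were also higher at day 11, and Wnt7a was the most lowered. EV cultures at day 11 had been in culture longer and under doxycycline, and time and doxycycline cannot be told apart in them.

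Other genes of the pathway were counted from a list of 62, of which 49 were tested. At day 1, 21 were higher (42.9%, beside 29.6% of all genes) and 24 lower (49%, beside 30.9%) in WT, 14 were higher (28.6%, beside 25.5% of all genes) and 24 lower (49%, beside 27.7%) in FE255del, and 17 were higher (34.7%, beside 23.2% of all genes) and 18 lower (36.7%, beside 25.3%) in R219S. On day 11, 7 were higher (14.3%, beside 21% of all genes) and 17 lower (34.7%, beside 19.7%) in WT, 12 were higher (24.5%, beside 22.6% of all genes) and 19 lower (38.8%, beside 19.6%) in FE255del, and 16 were higher (32.7%, beside 17.7% of all genes) and 8 lower (16.3%, beside 14.4%) in R219S. Ascl2, a Wnt target of intestinal stem cells, had 31.8 ± 2.23 scaled CPM in WT and 14.1 ± 0.987 in FE255del at day 1, against 0.308 ± 0.0520 in EV (6.68 ± 0.25, adjusted p = 1.1e-21 and 5.50 ± 0.25, adjusted p = 2.3e-19). It was thus higher in the cultures where Axin2 and Notum, also Wnt targets, were lower. The list held 5 such other targets, and Ascl2, Sp5 and Tnfrsf19 were higher and Ccnd1 and Myc lower in both constructs at day 1. That is 60% higher and 40% lower, beside 29.6% and 30.9% of all genes in WT and 25.5% and 27.7% in FE255del. In R219S Ascl2 was lower than EV at day 11 (0.0563 ± 0.0577 against 0.327 ± 0.0310, -2.53 ± 0.49, adjusted p = 8.0e-05; -3.51 without R219S day 11 replicate 2). Sostdc1, a secreted antagonist of BMP and Wnt signals, had 1.05 ± 0.201, 1.34 ± 0.254 and 3.53 ± 0.316 in WT, FE255del and R219S at day 11, against 17.8 ± 1.67 in EV (-4.09 ± 0.18, -3.72 ± 0.17 and -2.33 ± 0.16). It was lower already at day 0, at 0.0816 ± 0.0498, 0.124 ± 0.0483 and 0.573 ± 0.0322 against 3.24 ± 0.375 in EV (-5.27 ± 0.25, -4.67 ± 0.24 and -2.49 ± 0.19). Pygo1, a co-factor of beta-catenin, had 16.8 ± 0.822 in R219S at day 1 against 0.0293 ± 0.000330 in EV (9.08 ± 0.38, adjusted p = 5.9e-19). WT (0.321 ± 0.0655) and FE255del (0.333 ± 0.0677) were higher than EV too (3.38 ± 0.55 and 3.43 ± 0.55, adjusted p = 2.6e-06 each). At day 11, with no EV count, Pygo1 was at least 32.4-fold, 34.3-fold and 727-fold higher in WT, FE255del and R219S at the floor of 3 counts. Its fitted log2 value in R219S was 12.5, and 11.5 with halved counts. In WT it was higher already at day 0 (3.94, and 6.68 without EV day 0 replicate 3). Ror1, a Wnt5a receptor, had 1.35 ± 0.338, 1.83 ± 0.0944 and 2.58 ± 0.0825 in WT, FE255del and R219S at day 1 against 7.27 ± 0.225 in EV (-2.43 ± 0.16, -1.99 ± 0.15 and -1.49 ± 0.15). Ror2, from the same list, went the other way at day 1 in FE255del (241, 286 and 232 counts) and R219S (266, 307 and 255). EV then had 164, 184 and 157, and WT 236, 188 and 184. At day 11 Ror2 had 886, 896 and 895 in FE255del and 1574, 1524 and 1559 in R219S. EV had 413, 398 and 298 on that day, above the 226, 212 and 186 of WT.

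The 9 untested genes were the ligands Wnt1, Wnt2, Wnt2b, Wnt3, Wnt8a, Wnt8b and Wnt9b and, listed with the secreted inhibitors, Dkk1 and Dkk3. Wnt9b and Dkk1 had no count in any library, and the highest group mean among the 9 was 0.161 scaled CPM, for Wnt8a in WT at day 1. These values give no comparison at this depth.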

How the data were processed

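Gene-level RNA-seq counts of 36 libraries were used as deposited by the authors. Per the submitters' processing notes, the mm10 genome, featureCounts 1.4.3 and STAR 2.4.2a were used, and per the labels' protocols the libraries were polyA-selected with a stranded kit. The annotation release, the strand setting and how read pairs were counted are not given in the sources used here. The deposited values are expected counts in form: 298311 of them were not whole, by at most 3.0e-09, and all were rounded. Among counts of 1 to 20, 69.7% were even, against 50.3% of those above 1000, and halved counts were therefore 1 of the alternatives. Library totals were 61476938 to 102385337.

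The 12 groups were fitted together with edgeR 4.0.16 in R 4.3.3 (quasi-likelihood test, TMM factors 0.938 to 1.08, genes kept by filterByExpr, common biological coefficient of variation 0.0695). P-values of 23 comparisons were adjusted by the Benjamini-Hochberg method over 18176 genes, with a threshold of 0.05. A group with no count was given a floor of 3 counts over its libraries, and ratios on 1 to 3 counts have 95% exact conditional intervals. Both cover counting error only and take counts as independent. If both reads of a pair were counted, the intervals are too narrow and the bounds at the floor too high. The 45 genes and all lists were chosen with earlier results of these data known. Genes with a mean of at least 1 scaled CPM and a 2-fold range of group means are given at length. In each change since day 0 and for the other pathway genes against EV, the 3 largest called differences are named, the others where the mean was at least 2 CPM. Alternatives were RLE and total-count scaling, no filter and a stricter one, fits of the compared groups alone, DESeq2 1.42.0, the replicate block, halved counts and leaving out each library. The steps were tested on simulated data.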

Additional observations from a re-analysis of the deposited data

Results flagged for a closer look

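The change since day 0 differed between a FOXA1 construct and EV for the genes below, by a test of that difference in the edgeR quasi-likelihood model, on the log2 scale and relative to the change in EV. The 3 largest among genes that averaged at least 1 scaled CPM are given per construct and day, and the comparisons of 1 day share the EV libraries.

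In WT at day 1 these were Wnt7a (-2.54 ± 0.27, adjusted p = 1.3e-09), Wif1 (2.29 ± 0.21, adjusted p = 8.4e-10) and Notum (-2.01 ± 0.17, adjusted p = 7.0e-12). In FE255del at day 1 they were Wif1 (3.16 ± 0.21, adjusted p = 2.7e-12), Wnt7a (-2.12 ± 0.24, adjusted p = 4.9e-09) and Wnt10a (-1.92 ± 0.14, adjusted p = 1.0e-12). In R219S at day 1 they were Wnt7a (-3.36 ± 0.25, adjusted p = 3.7e-13), Lef1 (2.96 ± 0.61, adjusted p = 1.8e-04) and Sfrp1 (2.21 ± 0.12, adjusted p = 5.5e-17). Wnt7a was lower in every induced library than in every EV library of day 1.

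At day 11 Notum in WT, Wif1 in FE255del and Lef1 in R219S were again among the 3. In WT they were Lef1 (-2.99 ± 0.55, adjusted p = 1.0e-04), Notum (-1.39 ± 0.17, adjusted p = 7.6e-08) and Wnt5b (1.22 ± 0.29, adjusted p = 0.002). In FE255del they were Wnt5b (2.07 ± 0.30, adjusted p = 2.4e-06), Wnt9a (-1.23 ± 0.17, adjusted p = 9.6e-07) and Wif1 (1.09 ± 0.21, adjusted p = 2.6e-04). In R219S they were Lef1 (4.19 ± 0.58, adjusted p = 1.3e-06), Wif1 (2.53 ± 0.21, adjusted p = 8.8e-10) and Fzd4 (-1.05 ± 0.16, adjusted p = 5.3e-06). Lef1 thus stood at opposite ends in WT and R219S.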

How the results depend on the processing

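Of the 36 tested genes and 4 other pathway genes, none that was called in the main fit or an alternative changed direction between them. With total-count scaling the majority among all called genes did change sides in some comparisons, as in WT against EV at day 1 (60.8% higher in place of 49.0%). Over the 36 tested genes and 4 other pathway genes in 23 comparisons, most values, called or not, stayed on their side of the threshold. With the replicate block 6 lost and 2 gained a call, with RLE scaling 7 and 2, with total-count scaling 17 and 12, with no filter 21 and 1, with a stricter filter 4 and 10, with the compared groups alone 25 and 16, with halved counts 9 and 9, with DESeq2 4 and 12, and over all fits that left out 1 library 276 and 48. The replicate block (replicate numbers as a term) left 28 of the Wnt genes called in WT against EV at day 1, in place of 29, and ended the Lef1 calls in WT against EV at day 1 (adjusted p = 0.0564) and in the FE255del change at day 1 (0.0514). The numbers showed no strong pairing of the cultures, since deviations of like-numbered samples correlated between -0.281 and 0.282. Within a construct, those of day 11 and day 0 correlated between 0 and 0.282, none of them negative. Whether numbers follow the same culture over days is not known.

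Leaving out 1 library mattered most at day 0 and in EV at day 1. In R219S against EV at day 0 the called Wnt genes ranged from 5 to 9 (10 with all libraries) and all called genes from 2091 to 3512 (3654). In FE255del against EV at day 0 all called genes ranged from 2490 to 3486 (3776). In EV at day 1 against day 0 the called Wnt genes ranged from 0 to 1 (1 with DESeq2, and 3 or 4 at an unadjusted p under 0.05 in the edgeR fits that called 0) and all called genes from 62 to 180 (260), while DESeq2 called 393 and a fit of the compared groups alone 658. Such a fit called 3817 genes in R219S against EV at day 11 in place of 5833, and 1706 in FE255del against WT at day 11 in place of 3213. The cause was not tested.

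Depth limits Nkd1, Sfrp2, Lgr5, Dkk2, Wnt3a, Wnt10b and Wnt16, whose values rest on few counts in some groups. For genes that share exon bases with another gene on the opposite strand (Axin2, Fzd5, Fzd6, Lef1, Notum, Sfrp2, Wnt11, Wnt5a and Wnt7b), reads of the pair cannot be told apart if strand was not used.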
